A study of Mus musculus with 4 samples.

Results

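The cells that the authors named Immune cells were described here in the developing mouse gonad and the adjacent mesonephros. They were taken by that deposited name alone, and numbered 405 of 52745 cells. They came from 4 single-cell RNA-seq samples, each 1 pool of 3 or 4 pairs of gonads with mesonephroi, so no group had a biological replicate. The XY control (220 immune cells of 23527) was embryos at E11.5 made by tetraploid complementation from the G4 embryonic stem cell line, an XY line of C57BL/6J-129 F1 hybrid background. In this method the embryo comes from the stem cells. The XY KO at E11.5 (73 of 17057) and the XY KO at E11.75 (38 of 8492) came from the same line after CRISPR/Cas9 removed both copies of the miR-17~92 cluster, in every cell type and not in the immune cells alone. Clones homozygous for the deletion were used, and how many clones gave the embryos is not given in the sources used here. The XX control at E11.5 (74 of 3669) carried the intact cluster and came from crosses of C57BL/6J males with 129 females, so breeding as well as sex sets it apart. The label of all 4 samples gives the strain as C57BL/6 x 129S4/SvJae. No barcode occurred in more than 1 library among the immune cells, and 6 of the 405 immune barcodes also occurred in another library in any cell.

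Macrophages enter the embryonic gonad early, from yolk sac and later fetal liver haematopoiesis. They engulf dying cells and debris, and take part in shaping the vessels and cords of the fetal testis. Their survival depends on CSF1R, the receptor for the ligands CSF1 and IL34, their identity on the transcription factor PU.1 (encoded by Spi1), and their clearance work on the complement C1q chains, scavenger receptors and lysosomal proteases. The miR-17~92 cluster is known in blood cells for promoting survival and proliferation.

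By their genes the cells were mainly macrophages in the XY KO samples and the XX control. This was not shown for the XY control, where the share of cells with macrophage genes depended on the markers required. With 2 or more of the 5 markers Ptprc, Tyrobp, C1qa, Fcer1g and Csf1r required, 35.9% of the XY control immune cells qualified, against 83.6% and 89.5% in the XY KO at E11.5 and E11.75, and 89.2% in the XX control. Immune cells of the XY control were shallower, with a median of 1488 UMIs (unique molecular identifiers, each 1 counted RNA molecule) against 7040, 5769.5 and 18870.5. The medians of other cells were 3906, 4759, 3915 and 15478. Immune cells were thus shallower than the other cells of their sample in the XY control alone. After each cell was thinned to 1000 UMIs, which left out 41 XY control cells and at most 1 of any other sample, the shares were 16.2%, 54.2%, 62.2% and 62.2%. A longer list of 20 macrophage genes set the XY control less far apart. After thinning, 2 or more of its genes were seen in 53.1% of XY control immune cells (exact interval 45.5 to 60.6), 76.4% and 81.1% of those of the XY KO at E11.5 and E11.75, and 78.4% of those of the XX control, against 1.65%, 0.966%, 1.82% and 1.14% of the other cells. The cells are therefore called immune cells below, and each ratio against the XY control is given with this difference in composition in view.

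The 6 mature miRNAs encoded by the deleted cluster are shown because their seeds, bases 2 to 8 counted from the 5′ end and printed in capitals, set which messages they bind. They lie within the host gene Mir17hg on chromosome 14 of GRCm38.p6, plus strand, from chr14:115043684-115043706 (miR-17-5p) to chr14:115044476-115044496 (miR-92a-3p), and the sequences are RefSeq's. The first pair shares 1 seed, miR-18a differs from them inside it, miR-19a and miR-19b share another, and miR-92a stands alone, which makes 4 seeds. Mature miR-19b and miR-92a also come from a paralogous cluster on another chromosome, and no mature miRNA was measured here.
mmu-miR-17-5p: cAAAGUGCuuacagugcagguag
mmu-miR-20a-5p: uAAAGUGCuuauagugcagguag
mmu-miR-18a-5p: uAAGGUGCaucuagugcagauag
mmu-miR-19a-3p: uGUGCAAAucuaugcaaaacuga
mmu-miR-19b-3p: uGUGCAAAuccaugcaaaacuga
mmu-miR-92a-3p: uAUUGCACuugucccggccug

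The host transcript Mir17hg was counted in all 4 samples. Summed over immune cells it had 16 UMIs in the XY control, 53 in the XY KO at E11.5, 37 in the XY KO at E11.75 and 29 in the XX control. Scaled to a common library total as CPM, the usual unit for counts of unequal depth, these were 27.5, 94.2, 162 and 18.1, so both KO samples were the higher ones. The same order held in all other cells, at 19.8, 156, 161 and 18.2 CPM. A 3′ count of the host transcript can lie outside the deleted stretch and does not check the deletion. Xist had 2, 0, 0 and 1077 UMIs in immune cells, and the Y-linked Ddx3y had 8, 4, 8 and 0, which matches the labelled sex of each sample.

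The named cells were a small part of every sample. They made up 0.935% of XY control cells (exact 95% Clopper-Pearson interval 0.816 to 1.07), 0.428% of XY KO cells at E11.5 (0.336 to 0.538), 0.447% at E11.75 (0.317 to 0.614) and 2.02% of XX control cells (1.59 to 2.53). These intervals, like every interval given here, cover counting error in these libraries only and not the spread between embryos. The XY KO share at E11.5 was 0.458 times that of the XY control (0.346 to 0.599), and the 2 technical runs of the XY control themselves differed, with 56 of 11628 cells (0.482%) in run 1 and 164 of 11899 (1.38%) in run 2. The interval of run 1 (0.364 to 0.625) held both runs of the XY KO at E11.5 (0.434% and 0.423%), so the lower share in the XY KO rests on run 2 of the XY control.

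Cells that carried RNA of several markers were not less frequent in the XY KO than in the XY control. Over all cells of a sample, named or not, thinned to 1000 UMIs, 35 of 23422 XY control cells (0.149%) and 39 of 17043 XY KO cells at E11.5 (0.229%) had 2 or more of the 5 markers, a ratio of 1.53 with an interval of 0.945 to 2.49. At E11.75 the ratio to the XY control was 1.82 (1.03 to 3.17), and in the XX control it was 8.39 (5.29 to 13.4). The summed level of the 5 markers over all cells of a sample showed the same order for the XX control, with 19.97 CPM in the XY control, 25.4 and 20.5 in the XY KO at E11.5 and E11.75, and 89.6 in the XX control. In such sums fewer macrophages and less marker RNA per macrophage cannot be told apart.

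**Figure D1:**
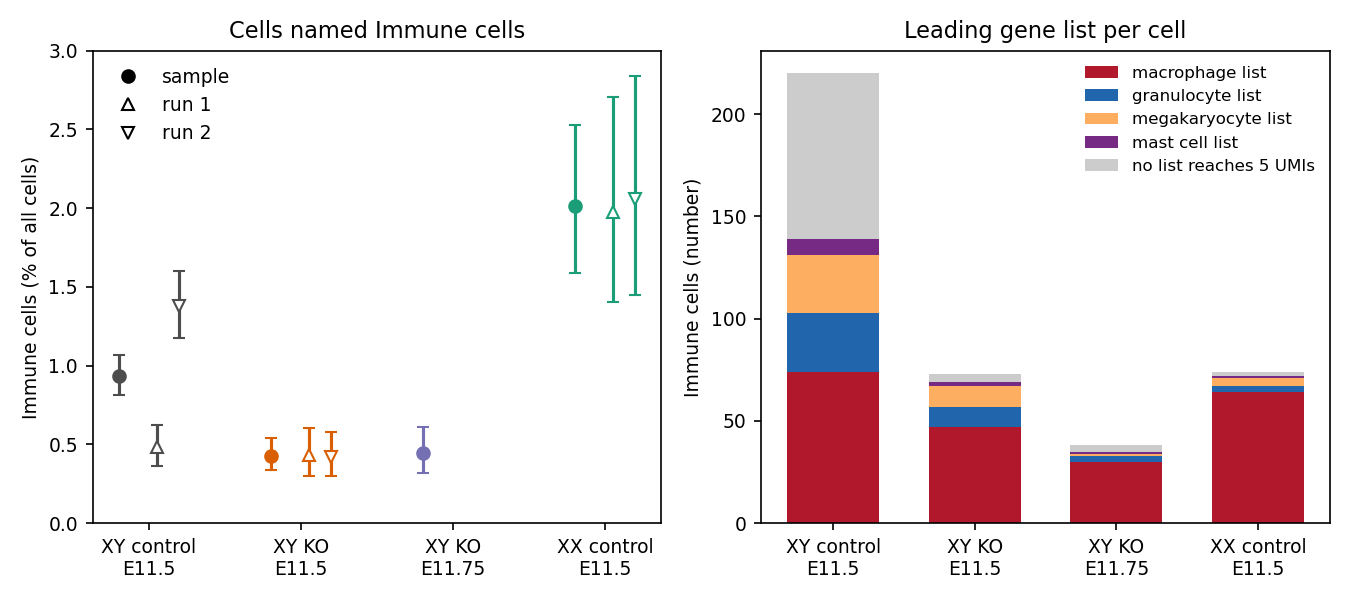
Left, share of all cells named Immune cells (%) per sample (filled circles) and per technical run (open triangles), with exact 95% Clopper-Pearson intervals; the XY KO at E11.75 had 1 run. Right, number of immune cells by which of the macrophage, granulocyte, megakaryocyte and mast cell lists leads in each cell. The XY control was high in run 2 alone, and 81 of its 220 cells were led by none of them.

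The markers were far above the level of other cells in every sample, and lowest in the XY control. The authors clustered cells by expression and named the clusters by marker genes. A level above other cells, here and in the ranks below, is therefore a description and no test of identity. Tyrobp, an adaptor that passes signals from many myeloid receptors, had a level of 368 CPM in XY control immune cells (320 to 421, exact Poisson), and of 1162, 629 and 1044 CPM in the XY KO at E11.5, the XY KO at E11.75 and the XX control. Fcer1g, the related adaptor of Fc receptors, stood at 363, 931, 633 and 1140.5 CPM. Both adaptors are also made by other myeloid cells, and the XY control lay below the other samples for both.

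C1qa and Csf1r, more restricted to macrophages, were further apart. C1qa, a chain of the first complement component, reached 67.1 CPM in XY control immune cells (47.7 to 91.7), 784 CPM in those of the XY KO at E11.5 (712 to 861), 917 CPM at E11.75 (797 to 1050) and 536 CPM in XX control cells (501 to 574). Csf1r stood at 84.3, 311, 572 and 500 CPM, and Ptprc, the pan-leukocyte phosphatase CD45, at 89.4, 171, 170 and 234. With runs pooled, no interval of the XY control reached those of the other samples for any of the 5 markers. By run, Ptprc overlapped, at 70.4 to 156 CPM in run 1 of the XY control and 113 to 210 in run 1 of the XY KO at E11.5. Runs of 1 pool can differ by more than these intervals. Fcer1g stood at 401 to 577 CPM in run 1 of the XY control and 217 to 333 in run 2.

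**Figure D2:**
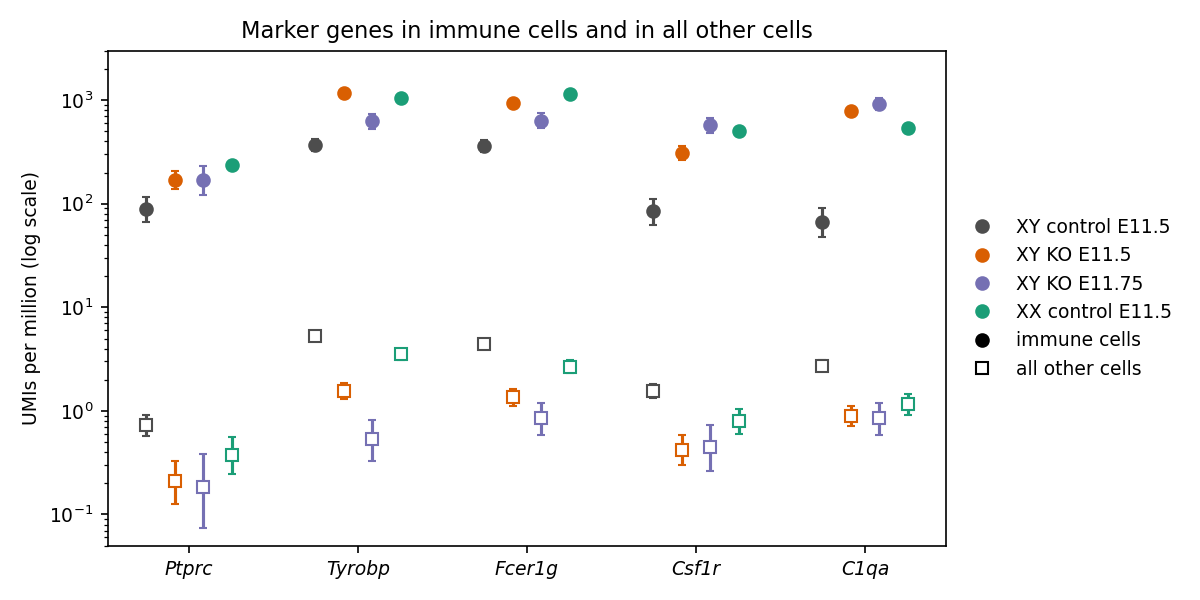
CPM (log scale) of the 5 markers summed over immune cells (filled circles) and over all other cells (open squares) of each sample, with exact 95% Poisson intervals. The XY control is the lowest of the 4 samples in immune cells and the highest in other cells for every marker.

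In the other cells the order was turned around. There C1qa stood at 2.74 CPM in the XY control against 0.892, 0.851 and 1.16, and Tyrobp at 5.24 against 1.56, 0.532 and 3.51. Of all UMIs of the 5 markers, 565 of 2101 (26.9%) lay in named immune cells of the XY control, but 1890 of 2288 (82.6%), 669 of 777 (86.1%) and 5525 of 6091 (90.7%) in the other samples. In the XY control the remainder was spread over 1436 other cells, none with more than 9 of these UMIs. After thinning, C1qa was seen in 0.344% of the other cells of the XY control and in 7.26% of its immune cells, against 0.0766% and 34.7% in the XY KO at E11.5. By gene, the share of UMIs that lay in XY control immune cells was 11.96% for C1qa, 23.1% for Csf1r and 52.5% for Cx3cr1 among macrophage genes. It was 67.0% for S100a8 and 81.3% for Mpo, with 60.1% for the whole granulocyte list, and 70.2% for Pf4 and 86.3% for Gp9 of megakaryocytes.

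Genes with at least 100 UMIs in the immune cells of a sample were ranked by their ratio of immune over other cells. In the XY control this left out C1qa (39 UMIs), Csf1r (49) and Cx3cr1 (64), so the ranks do not compare samples. The first in the XY control were Gp5, Gp9, Treml1 and Ppbp, which encode platelet and megakaryocyte surface and granule proteins, followed, after Mpo and Stfa1, by Camp; Mpo and Camp encode granule proteins of neutrophils and their precursors. In the XY KO at E11.5 the first was Cx3cr1, the fractalkine receptor, followed by Mpo, the protease gene Ctss and C1qc. In the XY KO at E11.75 the first were Cx3cr1, Csf1r, Tyrobp and C1qb. In the XX control the first was Cx3cr1, followed by Ppbp, and the platelet genes Gp9, Gp5 and Pf4 lay at ranks 5, 11 and 12.

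Each cell was next placed by which of 4 lists (macrophage, granulocyte, megakaryocyte and mast cell) had the most UMIs in it, with at least 5 required, a division made after the data were seen. The erythroid list was left out of this choice, and in XY control immune cells it held 2922 UMIs against 1084 of the macrophage list. Of the XY control immune cells, 74 were led by the macrophage list, 29 by the granulocyte list, 28 by the megakaryocyte list and 8 by the mast cell list, and 81 by none of the 4. In the XY KO at E11.5 the macrophage list led 47 of 73 cells, in the XY KO at E11.75 30 of 38 and in the XX control 64 of 74. As a share of all cells, macrophage-led cells were 0.315% in the XY control and 0.276% in the XY KO at E11.5, a ratio of 0.876 (0.594 to 1.28). This ratio turns with the run of the XY control, whose macrophage-led cells were 0.155% in run 1 and 0.471% in run 2, on either side of the XY KO. The other immune cells were 0.621% and 0.152%, a ratio of 0.246 (0.155 to 0.375). In run 1 of the XY control they were 38 of 11628 cells (0.327%) and in run 2 108 of 11899 (0.908%), both above the runs of the XY KO (0.166% and 0.141%). The class depends on depth, because 5 UMIs are harder to reach in shallow cells: the 81 XY control cells led by none had a median of 1148 UMIs, 54 of them held more UMIs of the macrophage list than of each of the other 3 lists, and 69 came from run 2.

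Even the macrophage-led cells of the XY control held few macrophage UMIs. Their median was 7 UMIs of the 20 listed genes, and 44 of the 74 lay at 7 or fewer, near the limit of 5. The medians were 90, 69 and 207 in the other samples. As a share of each cell's UMIs the medians were 0.398% in the XY control and 1.20%, 1.28% and 0.900% in the others. The 4 macrophage-led XY control cells with 5000 or more UMIs held 0.0477% to 0.111% of their UMIs on the list, at a median of 0.0929%. The medians of such cells in the other samples were 1.20% over 43 cells, 1.20% over 19 and 1.11% over 53, with ranges of 0.156% to 2.15%, 0.372% to 2.23% and 0.0415% to 1.97%. The range of the XX control thus held the 4 XY control cells. At 20 or more listed UMIs there were 4 of 220 XY control cells, 51 of 73, 27 of 38 and 53 of 74. Shallow cells reach this count less often, and 140 of the 220 XY control cells had under 2000 UMIs.

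**Figure D3:**
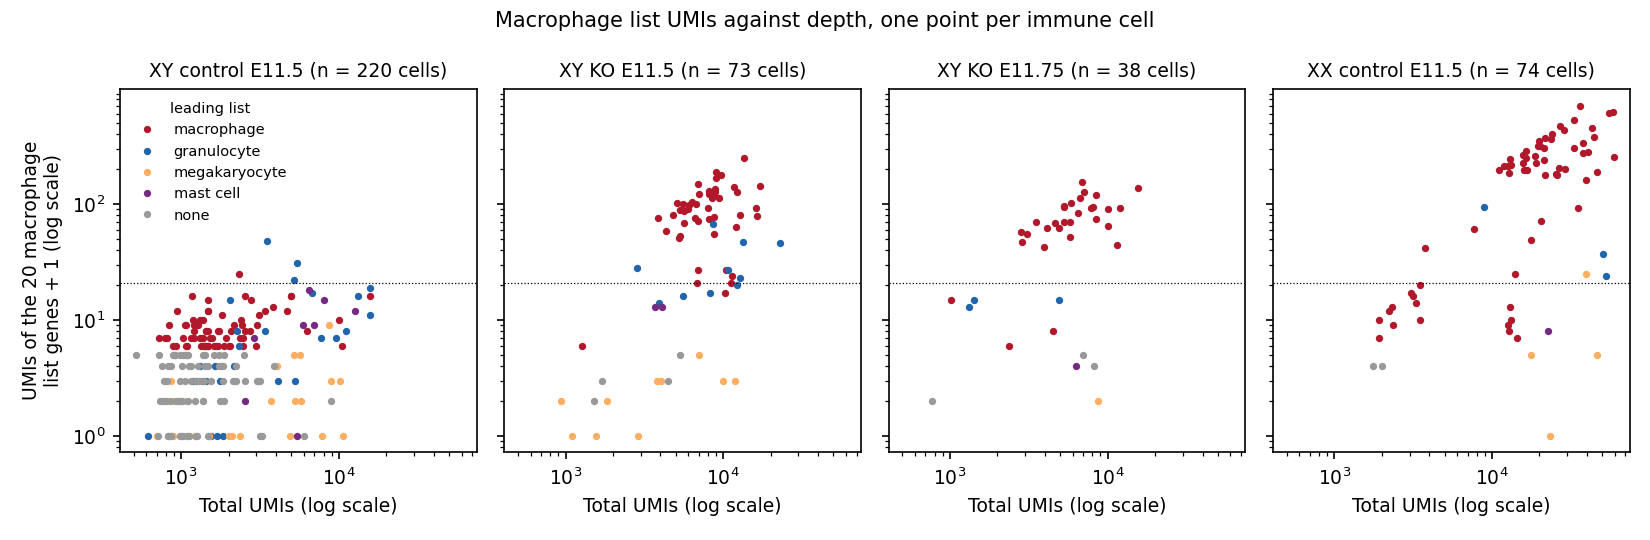
One point per immune cell, with the total UMIs of the cell (log scale) on the horizontal axis and the UMIs of the 20 macrophage list genes plus 1 (log scale) on the vertical axis, coloured by the leading list. The dotted line marks 20 UMIs; 51 of 73 cells of the XY KO at E11.5 reach it and 4 of 220 XY control cells do, of which 140 had under 2000 UMIs in all.

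RNA typical of several other cell types of the tissue was highest in the XY control with both runs pooled. The gonadal somatic list stood in immune cells at 37.1% of its level in other cells in the XY control, against 8.94%, 14.8% and 23.0% in the XY KO at E11.5, the XY KO at E11.75 and the XX control. The mesenchyme list stood at 34.9%, 6.74%, 17.7% and 17.5%, the germ cell list at 27.1%, 8.70%, 8.08% and 9.93%, and the renal epithelium list at 35.2%, 17.8%, 6.29% and 16.5%. The endothelial list did not follow this order, at 60.5%, 48.6%, 70.9% and 50.4%, and the neural crest list was close in the XY control and the XY KO at E11.75, at 24.6%, 1.98%, 23.7% and 14.3%. The first pair of lists rested on run 2 of the XY control. In its run 1 and run 2 the mesenchyme list stood at 14.0% and 51.1% of the level in other cells (436 and 1578 CPM) and the gonadal somatic list at 22.2% and 49.3% (305 and 651 CPM), so in run 1 the mesenchyme list lay below the XY KO at E11.75 and the XX control, and the gonadal somatic list beside the XX control. The germ cell list (24.6% and 29.9%) and the renal epithelium list (23.9% and 44.3%) lay above the other samples in both runs. Globin and other erythroid genes summed to 5025, 979, 1442 and 884 CPM in immune cells and to 3024, 1275, 1807 and 1446 CPM in other cells, and of the XY samples the XY control had the loosest limit on globin RNA per cell, while the XX control was filtered by cluster. The part of these RNAs in the ratios below was not tested.

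The first comparison asked how immune cells of the XY KO at E11.5 differed from those of the XY control at the same stage. Summed over immune cells, 3969 genes had 50 or more UMIs over both samples, and their median log2 ratio was 0.01. Of these, 257 were 2-fold or more higher in the XY KO (6.48%) and 257 were 2-fold or more lower (6.48%). With 1 pool per genotype there is no test of the deletion, and each ratio compares these 2 libraries. A gene can be counted mostly through 1 sample, and then had more UMIs in it: 135 of the 257 higher genes had under 25 UMIs in the XY control, and 165 of the 257 lower genes under 25 UMIs in the XY KO. In the lists below this held for 5 of 17 higher macrophage genes, 3 of 7 complement, 5 of 19 lysosomal, 7 of 7 chemokine and 5 of 7 lipid genes, and for 2 of 10 lower megakaryocyte, 3 of 4 granulocyte and 6 of 9 imprinted genes, so the counts of members are descriptions.

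Macrophage genes were higher in the XY KO. Of 20 genes on the macrophage list, 18 had enough UMIs and 17 of them were past 2-fold higher, with a median log2 ratio of 2.09 against 0.01 over all genes. C1qa was the highest of the 5 markers at 3.53 (exact interval 3.07 to 4.06), and C1qb and C1qc stood at 2.78 and 2.31. Among receptors, the endocytic mannose receptor Mrc1 stood at 2.85 (2.40 to 3.36), the lipopolysaccharide co-receptor Cd14 at 3.49 (2.40 to 5.09), the high-affinity Fc receptor Fcgr1 at 2.95 (2.06 to 4.13) and Csf1r at 1.87 (1.42 to 2.37). Spi1 and Maf, which encode transcription factors of the lineage, stood at 1.23 and 1.77. In all other cells C1qa, Csf1r and Spi1 were lower in the XY KO (-1.61, -1.86 and -1.72), the reverse of the immune cells.

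Within macrophage-led cells alone the direction was kept and the size was smaller. There 1953 genes were counted, 226 higher (11.6%) and 91 lower (4.66%), and 15 of the 18 macrophage genes were higher, with a median of 1.38. The cells were chosen by the same genes, so this is a description of the cells kept.

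The lists of complement, uptake and digestion share genes with the macrophage list. Of the 15 complement genes 7 were counted and were higher, 3 of them the C1q chains given above, and the others included the receptors C5ar1 (3.19) and C3ar1 (1.92) and Cfp, the properdin that stabilises the alternative pathway (3.22). Of 27 lysosomal genes counted, 19 were higher and none was lower, with a median of 1.52, and without the 2 on the macrophage list 17 of 25 were higher. The cathepsins Ctsc, Ctsb and Ctsd had 560, 910 and 661 UMIs in the XY KO and 76, 204 and 192 in the XY control, and log2 ratios of 2.92, 2.20 and 1.83. In other cells these ratios were -0.23, -0.14 and -0.13. Of 16 counted receptors and adaptors of phagocytosis 8 were higher and 1 lower, or 5 higher of 13 without the C1q chains, and Msr1, a scavenger receptor, was among the 8 highest genes at 3.81 (2.87 to 5.14), with 115 UMIs against 8.

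Of 12 counted genes around CSF1R and the lineage's transcription factors, 8 were higher and 1 lower, with a median of 1.56. Of 15 counted genes of Fc receptor and ITAM signalling, the relay used by TYROBP and FCER1G, 7 were higher and none lower, or 5 and 10 with run 1 and run 2 of the XY control alone. Both lists share genes with the macrophage list, and without those 4 of 8 and 4 of 12 were higher. Of 10 counted chemokine genes, 7 were higher and 2 lower. Ccl2, a monocyte attractant, stood at 3.69 (3.02 to 4.53), with 218 UMIs against 17, and after thinning it was seen in 19.4% of XY KO and 2.23% of XY control immune cells, against 0.0530% and 0.0602% of other cells. Ccl9, Ccl6, Ccl3 and Ccl4 stood between 2.71 and 3.39. Of 13 lipid genes 7 were higher and of 11 iron and haem genes 7, with none lower in either list. Lpl, which splits triglycerides, and Abca1, a cholesterol exporter, stood at 3.03 and 2.29, and Apoe at 1.71. Lgals3, a lectin of activated macrophages, had the highest ratio by the lower bound, 4.57 (3.44 to 6.35), with 126 UMIs against 5, and after thinning it was seen in 15.3% and 0.559% of immune cells, against 0.0943% and 0.0947% of other cells.

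Of 14 counted early response genes 7 were past 2-fold higher in the XY KO and none lower, with a median of 1.06, and with run 1 of the XY KO alone 5 were, with a median of 0.77. Fos stood at 2.31 (1.89 to 2.76) and Egr1 at 1.65 (1.18 to 2.16), while in other cells they stood at -0.21 and -0.96.

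Summed over immune cells, megakaryocyte genes were lower in the XY KO, and so were some granulocyte genes. Of 11 counted megakaryocyte genes, 10 were lower, with a median of -2.01, among them Gp9 (-2.34), Gp5 (-2.07) and Itga2b (-2.15). Of 10 counted granulocyte genes, 4 were lower and none was past 2-fold higher, with a median of -0.85. With run 1 and run 2 of the XY KO alone 3 and 9 were lower. Ngp had 94 UMIs in the XY control and 0 in the XY KO, which puts it 30.3-fold lower with 3 UMIs as the floor for that library. Folds at this floor leave out the counting error of the other sample. Mpo and Prtn3, of early granulocytes, stood at -0.07 and -0.17, and Prtn3 at -1.39 with run 2 of the XY KO alone. Summed, the granulocyte list stood at 8794 and 4718 CPM in runs 1 and 2 of the XY control and at 6215 and 2306 CPM in those of the XY KO, so the runs overlap. In macrophage-led cells alone, both counted granulocyte genes were higher in the XY KO (median 3.19), and so was the 1 counted megakaryocyte gene (1.59). The choice of these cells bounds such genes, because no other list may exceed the macrophage list in a cell. That list had a median of 7 UMIs per cell in the XY control and 90 in the XY KO. Of 3 mast cell genes 2 were lower, of 4 progenitor genes 3 and of 7 erythroid genes 6, and the 5 monocyte genes had 1 higher and 1 lower. Few cells carried the granulocyte sums, since 1 XY control cell held 306 of the 820 S100a8 UMIs, and all 39 Camp UMIs of the XY KO lay in 1 cell. The 3 cells with most megakaryocyte list UMIs held 970 of 2154 in the XY control and 430 of 826 in the XY KO. Cells led by the megakaryocyte list were 28 of 220 in the XY control (12.7%) and 10 of 73 in the XY KO (13.7%). Those led by the granulocyte list were 29 (13.2%) and 10 (13.7%). The shallower XY control cells reach the 5 UMIs required less often.

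The 8 lowest genes also held some that mark no blood lineage. H19, an imprinted non-coding RNA, had 116 UMIs in the XY control and 0 in the XY KO (37.4-fold lower at the floor of 3 UMIs). It was also far lower in other cells (-5.85). Igfbp3, Auts2, Cited4 and Kctd14 stood at -3.48, -3.34, -3.55 and -3.35, and Igfbp3 at -4.29 with run 1 of the XY KO alone. The lower mesenchyme and imprinted genes depended on run 2 of the XY control. Of 6 counted mesenchyme genes 5 were lower, at a median of -1.72, for example Col3a1 at -2.07, although Col3a1 was slightly higher in other cells (0.30). With run 1 of the XY control alone 1 of the 6 was lower, at a median of -0.40. Of 10 counted imprinted genes 9 were lower in immune cells, but 4 with run 1 alone, when Dlk1 and Nnat turned from -1.74 and -1.75 to 0.27 and 0.19. Of the 9, Peg3 and Mest stood near 0 in other cells (0.12 and 0.14).

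Proliferation genes were close between the samples. Of 18 counted G1/S genes none was past 2-fold, with a median of 0.12 (2 were with run 1 of the XY control alone), and of 23 G2/M genes only Cenpe was, at -1.29. Mki67, present in dividing cells, stood at 251 CPM in the XY control and 238 in the XY KO. Genes known as targets of the cluster were mixed. Of 36 such genes 12 had enough UMIs, with 3 higher, 2 lower and a median of -0.13. The TGF-beta receptor gene Tgfbr2 stood at 1.83 (0.88 to 2.99) and Sirpa, an inhibitory receptor of phagocytes, at 2.10 (1.65 to 2.61), whereas Cdkn1c stood at -1.93 and Thbs1, also a platelet product, at -1.72. With run 1 of the XY control alone Cdkn1c was within 2-fold (-0.87).

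The size of many of these ratios depended on the technical run. Of 183 named genes, 53 moved by over 1.5 times with run 1 of the XY control alone and 31 with run 2 alone, and 25 and 22 with run 1 and run 2 of the XY KO alone. With run 1 of the XY control alone C1qa, C1qb and C1qc stood at 4.38, 3.49 and 2.99, Csf1r at 2.66, Mrc1 at 3.84, Maf at 2.37, Msr1 at 5.11, Cfp at 2.54, Lpl at 3.85, Ccl2 at 4.45, Ccl3 at 4.14, Col3a1 at -1.11 and Kctd14 at -2.21. For genes with few XY control UMIs both runs moved, run 1 and run 2 giving 5.98 and 2.66 for Cd14, 4.55 and 2.27 for Fcgr1, 5.14 and 1.97 for Ccl4, 2.52 and 4.04 for Ccl6, -4.29 and -2.56 for Cited4 and -2.95 and -1.59 for Gp9. Thbs1 stood at -1.13 with run 2 of the XY control alone, and Apoe and Tgfbr2 at 1.07 and 1.20 with run 1 of the XY KO alone. The macrophage list had between 16 and 18 of 18 genes past 2-fold higher in each of these 4 settings, the complement list 7 of 7 and the megakaryocyte list 8 or more of 11 lower.

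The XX control provided a sample with the intact cluster whose immune cells were mainly macrophages by their genes. Against the XY control, 6181 genes were counted, 406 higher (6.57%) and 333 lower (5.39%), and with TMM scaling of the libraries (a trimmed mean over genes) the split was 563 and 192. With a prior count of 5 the balance turned, and more genes were lower than higher. That prior was added to the raw counts. It therefore shifts genes with few UMIs towards lower ratios here, because the XX control had the larger total. All 5 markers and 19 of 20 macrophage genes were higher in the XX control, with a list median of 1.99, and 11 of 12 granulocyte genes were lower, with a median of -3.14. The granulocyte value depended on the run of the XX control, where 1 cell of run 1 held 1242 of the 1484 UMIs of the list. The list stood at 1785 and 179 CPM in its run 1 and run 2, and with each alone 9 and 11 genes were lower, at medians of -2.05 and -7.11. Both this ratio and that of the XY KO use the same XY control cells, so they are not independent. Of the higher genes here 293 of 406, and 6 of the 19 macrophage genes, had under 25 UMIs in the shallower XY control and were counted mostly through the XX control.

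The XY KO at E11.5 was therefore also set beside the XX control, a comparison added after the data were seen. In it sex, breeding, genotype, depth and the filtering of cells differ together. Here 6024 genes were counted, with 195 higher (3.24%) and 257 lower (4.27%) in the XY KO, and with TMM scaling 140 and 303. With a prior count of 5 the balance turned, and more genes were higher than lower. Here the XX control with its larger total is the divisor, so the same prior shifts genes with few UMIs towards higher ratios. Of the 257 lower genes 209 had under 25 UMIs in the XY KO and were counted mostly through the deeper XX control. None of the 5 markers was past 2-fold with both runs together, and Csf1r was with run 1 of the XY KO alone (-1.03). The macrophage list had 3 genes higher and 1 lower of 20, with a median of -0.12, and 2 and 3 with that run alone. None of the 30 lysosomal genes was past 2-fold, with a median of 0.06. Of 22 counted targets of the cluster none was past 2-fold higher and 1 was lower, with a median of 0.12. With run 1 of the XY KO alone 2 targets were higher and 2 lower. C1qa stood at 0.55 (0.38 to 0.71), Tyrobp at 0.16 (0.02 to 0.29), C1qb at -0.19 and Csf1r at -0.68 (-0.93 to -0.45).

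**Figure D4:**
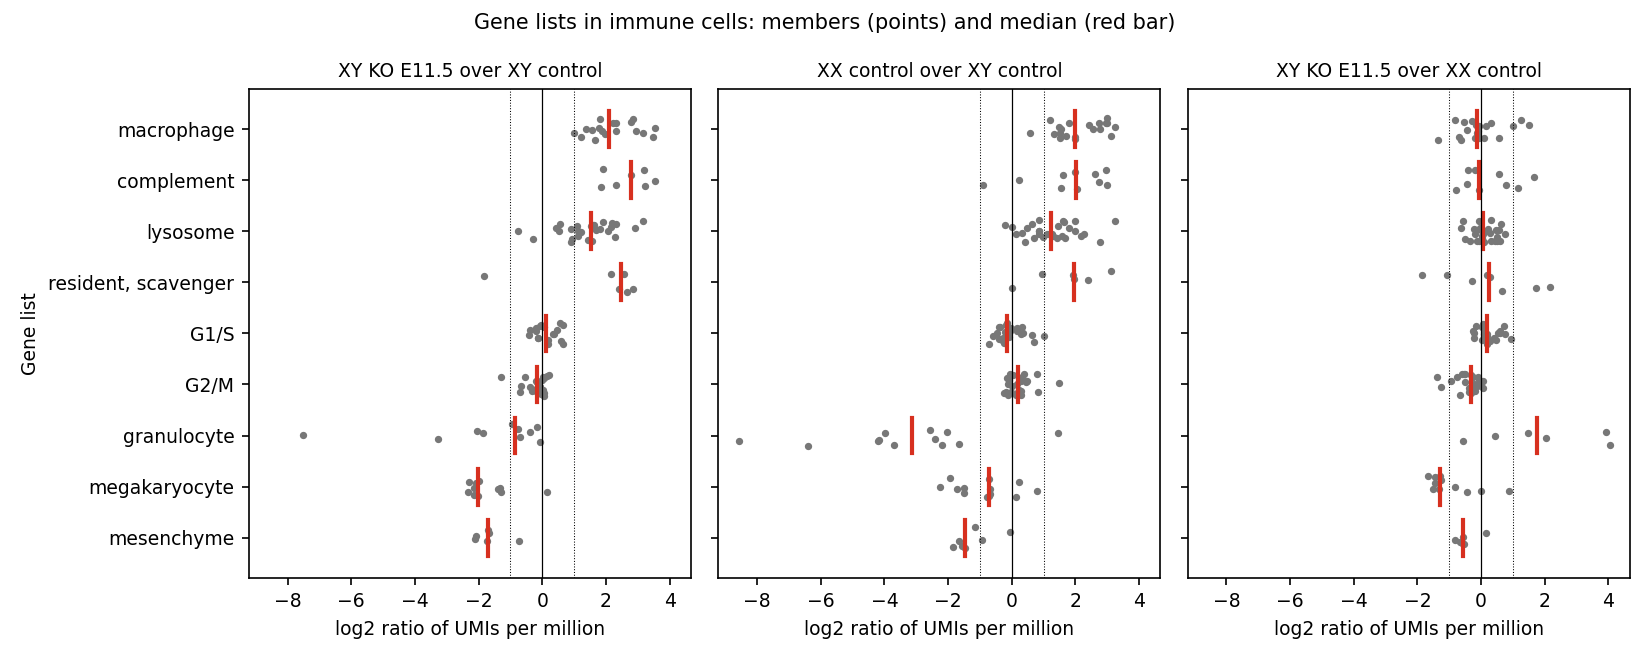
Log2 ratio of summed CPM for the counted members of 9 gene lists (grey points, vertical position within a list is random) and their median (red bar) in 3 comparisons; dotted lines mark 2-fold. Macrophage, complement and lysosome medians are above 1 in both comparisons with the XY control, and between -0.12 and 0.06 in the XY KO at E11.5 over the XX control.

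Some macrophage genes did differ between the XY KO at E11.5 and the XX control. Higher in the XY KO were Ccl2 (4.21, 3.70 to 4.81), Msr1 (2.49), Lyve1, a hyaluronan receptor of resident macrophages (2.15), Cd14 (1.51) and Lyz2 (1.02). Lyz2 was below 2-fold with TMM scaling (0.92), with run 1 of the XY KO alone (0.72) and with run 1 of the XX control alone (0.53), and Lyve1 stood at 0.83 and 2.82 with run 1 and run 2 of the XY KO alone. In macrophage-led cells alone Ccl2, Msr1 and Lyve1 stood at 4.45, 2.75 and 2.43. Of 18 counted glycolysis and transport genes 6 were higher and 1 lower, among them the glucose transporter Slc2a1 (2.16) and the lactate exporter Slc16a3 (1.59), and both were also higher in other cells (1.11 and 1.83). Prtn3 and Mpo stood at 4.04 and 3.91, with 638 against 110 UMIs and 373 against 70, and Prtn3 at 4.71 and 2.82 with run 1 and run 2 of the XY KO alone. With run 1 of the XX control alone Mpo stood at 5.00.

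Lower in the XY KO than in the XX control was Siglech, a lectin of microglia and plasmacytoid cells. It had 0 UMIs against 56 (6.57-fold lower at a floor of 3 UMIs). The macrophage gene Ms4a7 (-1.35) and the purinergic receptor Gpr34 (-1.04) were lower too. Like Siglech, both had under 25 UMIs in the XY KO and were counted mostly through the deeper XX control. With run 2 of the XY KO alone Ms4a7 and Gpr34 were within 2-fold (-0.77 and -0.70), and with run 1 alone Ms4a7 stood at -2.16. Of 11 counted megakaryocyte genes 7 were lower, with a median of -1.29, but 3 XX control cells held 3354 of the 3977 UMIs of this list (84.3%). Cells led by the list were 10 of 73 in the XY KO and 4 of 74 in the XX control. H19 was lower here too (34.9-fold at the floor of 3 UMIs), as in other cells (-6.47). Ighm, the heavy chain of immunoglobulin M, stood at -2.41 (-3.05 to -1.87), with 27 UMIs against 415, and after thinning it was seen in 2.78% and 18.9% of immune cells, against 0% and 0.0835% of other cells.

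At E11.75 some genes of resident, scavenging macrophages were higher in the XY KO than at E11.5. Against the XY KO at E11.5, 2933 genes were counted, 181 higher (6.17%) and 96 lower (3.27%), with a median of 0.06. With TMM scaling the median moved to -0.25 and the split to 59 and 273. Of 7 counted genes of the resident list 4 were past 2-fold higher, with a median of 1.18, and 2 with TMM scaling, with a median of 0.87. Mrc1 had 441 UMIs over the 38 cells at E11.75 and 303 UMIs over the 73 cells at E11.5, or 1926 and 539 CPM, a log2 ratio of 1.84 (1.62 to 2.05). Lyve1 stood at 2.27 (1.80 to 2.75), the scavenger receptor Stab1 at 1.27, the endocytic adaptor Dab2 at 1.18 and the transcription factor Maf at 1.54. The same genes were also above 1 in macrophage-led cells except Dab2 (0.95). With run 1 and run 2 of the XY KO at E11.5 alone, Lyve1 stood at 3.59 and 1.59.

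None of the 5 markers was past 2-fold between the stages, but Tyrobp was lower at E11.75 (-0.88) and Csf1r higher (0.88), and with TMM scaling Tyrobp passed 2-fold (-1.19). With run 2 of the XY KO at E11.5 alone Tyrobp was past 2-fold too (-1.01), and with run 1 alone Csf1r was (1.23). The macrophage list had 3 higher and 3 lower of 18, with a median of 0.07. Cx3cr1 was higher at E11.75 (1.23, 0.85 to 1.60), though below 2-fold with TMM scaling (0.92), and Lyz2 (-1.37) and Cd14 (-1.09) were lower. Of 5 monocyte genes, 2 were lower at E11.75 (Plac8 at -1.80 and Fn1 at -1.04), although the list's median was 0.23. Both and Cd14, like 79 of the 96 lower genes of this comparison, had under 25 UMIs at E11.75 and were counted mostly through the deeper E11.5 sample. With run 1 of the XY KO at E11.5 alone Fn1 and Cd14 were within 2-fold (-0.43 and -0.86). The granulocyte gene Prtn3 stood at -1.75, and the platelet gene Ppbp at -3.70, with 3 UMIs in 2 cells against 111 in 5. With run 2 of the XY KO at E11.5 alone Prtn3 was within 2-fold (-0.52) and Ppbp at -4.38, and with run 1 alone Prtn3 stood at -2.42, Ppbp at -2.28, and the stromal genes Igfbp5 and Igfbp3 at 3.67 and 3.97. Lgals3 and Ifitm3 stood at -2.60 and -1.99, and the Lgals3 level was 34.9 CPM at E11.75. In macrophage-led cells Lgals3 stood at 17.6 CPM in the XY control, 280 and 31.5 in the XY KO at E11.5 and E11.75, and 52.5 in the XX control. Igfbp3, Igfbp5 and Col3a1, of stromal cells, were higher at E11.75 (3.16, 2.78 and 2.01), and the mesenchyme list was the higher there too, as given above. Of 20 G2/M genes 3 were higher at E11.75, with a median of 0.53 (2 and 6 with run 1 and run 2 of the XY KO at E11.5 alone, and 1 with TMM scaling, at a median of 0.22), and Mki67 stood at 476 CPM against 238. With TMM scaling the median of the macrophage list and the ratio of C1qa turned to -0.24 and -0.08, Mrc1, Lyve1 and Maf stood at 1.53, 1.96 and 1.23, and Stab1 and Dab2 at 0.96 and 0.87, below 2-fold.

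Against the XY control, the XY KO at E11.75 had 3019 genes counted, with 326 higher (10.8%) and 221 lower (7.32%), and with TMM scaling 226 and 338. Mrc1 (4.69), Lyve1 (4.66), Stab1 (3.94), Msr1 (4.10), C1qa (3.76), Dab2 (3.34), Maf (3.31) and the progranulin gene Grn (3.04) were the 8 highest. With run 1 of the XY control alone Mrc1, Stab1, Msr1, C1qa and Maf stood at 5.68, 4.68, 5.40, 4.61 and 3.91, and with run 2 alone Msr1 stood at 3.46. Of the 5 markers 2 were past 2-fold higher, with a median of 0.93, and 4 with run 2 of the XY control alone. Of 15 counted macrophage genes 13 were higher, and of 9 granulocyte and 9 megakaryocyte genes 8 each were lower (6 of the granulocyte genes with run 2 of the XY control alone). Of these, 5 granulocyte and 7 megakaryocyte genes, like 181 of the 221 lower genes, had under 25 UMIs at E11.75. They were counted mostly through the XY control, whose summed total was larger (581492 against 228919 UMIs). Here the stage and the deletion cannot be told apart.

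A short motif in the promoters of these lists was counted as a description. GAGGAAGT, an ETS-type motif of the kind that PU.1 binds, was searched on both strands of RefSeq promoters (250 bases before to 50 after the start, GRCm38.p6). It was found in 2 of 12 macrophage list genes with a promoter in the table (16.7%), 4 of 13 granulocyte genes (30.8%), 0 of 13 megakaryocyte genes and 997 of 27025 genes in all (3.69%). The promoter of C1qc is shown as a C1q gene that holds it. In the stretch at chr4:136893091-136893120, given on the gene's minus strand, the capitals mark the motif read on the opposite strand, at position -195 from the start.
C1qc: ggacggcagacACTTCCTCattttggcaca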

How the data were processed

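Single-cell RNA-seq was made from methanol-fixed cells with the 10x Genomics 3′ v3.1 chemistry. The authors aligned reads to mm10 with Cell Ranger 6.1.1, merged technical runs in Seurat, filtered the XY samples on mitochondrial and beta globin RNA with limits set per sample and the XX control by removing clusters of low quality, removed doublets with DoubletFinder, integrated the samples, clustered and named cells, and removed by hand 1 cluster that held XY control cells only. The deposited table holds raw UMI counts of 21495 genes in 52745 cells, and every value was whole. The deposited cell table gives cell names and the sample of each cell as text. It also holds the authors' percent of each cell's UMIs on mitochondrial and on beta globin genes. Its labels set the stage of each XY KO sample. The cell numbers in the study's methods would swap those stages, but the highest beta globin percent of any cell, 0.388% at E11.5 and 0.724% at E11.75 by the deposited labels, lies under the limit the methods give for that stage, and the second lies over the limit for E11.5.

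Counts were summed over the immune cells of a sample (581492 UMIs in the XY control, 562621 and 228919 in the XY KO at E11.5 and E11.75, 1599301 in the XX control) and divided by the total. Log2 ratios used a prior count of 0.5, genes with 50 or more UMIs over both samples, and exact 95% binomial intervals. A gene counted as past the fold at 2-fold or more. With 1 pool per group no test and no p-value was made. Python 3.11.15, numpy 2.4.6, scipy 1.17.1, pandas 2.3.3, matplotlib 3.10.9 and R 4.3.3 with edgeR 4.0.16 (for TMM factors only) were used, and the ratio code was tested on simulated data. Cells were thinned to 1000 UMIs for shares. Named genes were the 5 markers, Mir17hg and sex-linked genes as checks, the 8 genes highest and 8 lowest by the interval bound nearer 0 in each XY KO comparison, and from each of 36 gene lists the members past the fold and the 4 with most UMIs. The members and lists were chosen with earlier results of these data known. Alternatives were other depths, minimum counts, prior counts, scalings, denominators, single runs and subsets of cells, and runs of the XX control alone were added after the data were seen. The values of 1 listed gene are not reported here.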

Additional observations from a re-analysis of the deposited data

How the results depend on the processing

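The share of immune cells was 1.35%, 0.594%, 0.697% and 2.76% in the XY control, XY KO at E11.5, XY KO at E11.75 and XX control with cells outside the gonadal types as denominator. In the XY control it was 0.764% over cells with at least 1000 UMIs, 0.482% in run 1 and 1.38% in run 2. The share with 2 or more of the 5 markers was 5.91%, 44.7% and 44.6% in the XY control, XY KO at E11.75 and XX control when thinned to 500 UMIs, and 37.5%, 77.3%, 82.4% and 78.9% in the 4 samples at 2000 UMIs. For the macrophage list it was 31.4% in the XY control and 64.4% in the XY KO at E11.5 at 500 UMIs, 88.7% in the XX control at 2000, 73.7%, 94.6% and 89.2% in the XY control, XY KO at E11.75 and XX control with 1 marker required, and 33.0% and 59.7% in the XY control and XY KO at E11.5 with 3 required. In the shares of cells with markers, the XY control was the lowest sample in each setting where samples are given side by side.

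Genes past 2-fold moved with the minimum count: at 20 UMIs there were 1287 (XY KO at E11.5 over XY control), 1455 (XY KO at E11.75 over XY control), 1484 (XX control over XY control), 958 (XY KO at E11.75 over E11.5) and 1030 (XY KO at E11.5 over XX control), and at 200 UMIs 92, 87, 180, 35 and 81, since fewer genes were then counted. Without cells that had 2 or more markers of 4 other blood lists, an alternative chosen after seeing the data, they were 333, 270, 103, 125 and 214 in that order. This rule, applied without thinning, kept 131 XY control cells, 37 and 24 of the XY KO at E11.5 and E11.75, and 20 of the XX control. Fewer UMIs were then summed, so these counts do not compare with those of all immune cells. With macrophage-led cells, also chosen after seeing the data, the genes past 2-fold were 317 of 1953 counted genes (16.2%) and 266 of 1264 (21.04%) for the XY KO at E11.5 and E11.75 over the XY control, against 514 of 3969 (12.95%) and 547 of 3019 (18.1%) in all immune cells. Run 1 of the XY control alone gave 327 against the XY KO at E11.75, and run 2 of the XY KO at E11.5 alone gave 157 against E11.75. The planned removal of cells with markers of 5 other blood lists, erythroid included, left too few cells for a value.

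TMM scaling gave 316 higher and 226 lower genes (median 0.12) for the XY KO at E11.5 over the XY control, 226 and 338 (-0.17) for E11.75 over the XY control, 563 and 192 (0.13) for the XX control over the XY control, 59 and 273 (-0.25) for E11.75 over E11.5, and 140 and 303 (-0.06) for the XY KO over the XX control. A prior count of 5 gave 343 and 116, 278 and 396, 206 and 35, and 219 and 88 in the last 4 of these. It was added to the raw counts, so genes with few UMIs shift towards the sample with the smaller total. Under TMM 18 of 18, 13 of 15 and 19 of 20 macrophage genes were past 2-fold against the XY control for the XY KO at E11.5, the XY KO at E11.75 and the XX control, and 1 of the 5 markers, Tyrobp (-1.19), was past 2-fold for E11.75 over E11.5. At 20 UMIs 6 of 9 counted granulocyte genes were past 2-fold for E11.75 over E11.5 (1 higher, 5 lower), where 11.6% of 6151 genes were higher and 4.00% lower. For the XY KO over the XX control 8 of 11 were (6 higher, 2 lower), where 5.24% of 8861 genes were higher and 6.39% lower. Prtn3 turned to 1.06 in macrophage-led cells of the XX control over the XY control, where the choice of cells bounds granulocyte UMIs. Stfa1 turned to 0.33 for E11.75 over E11.5 by the mean CPM over cells. The cause was not tested for either gene.

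No paired analysis was possible because each group was 1 pool. Depth limits the XY control most, where 140 of 220 immune cells had under 2000 UMIs, and the XY KO at E11.75, with 38 cells.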

Other observations

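Outside the lists that carried the comparisons, the level of immunoglobulin RNA was highest in the XX control immune cells. Ighm had 415 UMIs there (259 CPM), with no more than 22 UMIs in 1 cell, against 22 UMIs in the XY control (37.8 CPM) and 27 and 25 in the XY KO at E11.5 and E11.75 (48.0 and 109 CPM). After thinning to 1000 UMIs Ighm was seen in 5.03%, 2.78%, 8.11% and 18.9% of immune cells in the order XY control, XY KO at E11.5, XY KO at E11.75 and XX control, and in 0.120%, 0%, 0.0238% and 0.0835% of other cells. The lymphoid list that holds Ighm summed to 127, 78.2, 153 and 340 CPM in the 4 samples in the order XY control, XY KO at E11.5, XY KO at E11.75 and XX control. Without thinning 2 or more of its genes were seen in 2.73%, 2.74%, 7.89% and 48.6% of immune cells in that order, where the XX control cells were the deepest, and after thinning to 1000 UMIs in none. Genes of antigen presentation by MHC class II were scarce everywhere, at 79.1, 65.8, 74.3 and 52.5 CPM for the list in the same order.

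The platelet chemokine Pf4, which yolk sac macrophages also make, was carried by few cells. In the XX control 1 cell held 3764 of 7226 UMIs, and 415 of the 420 S100a8 UMIs lay in 1 cell. In macrophage-led cells the Pf4 log2 ratio of the XY KO at E11.5 over the XY control was 1.33, and over all immune cells it was -1.84. With run 1 and run 2 of the XY control alone the latter stood at -2.57 and -0.83, the second within 2-fold.

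Csf1, a ligand of CSF1R, stood at 8.06 CPM over all other cells of the XY control, 10.5 and 11.67 in the XY KO at E11.5 and E11.75, and 6.83 in the XX control. Immune cells held 3, 8, 1 and 1 Csf1 UMIs in the same order, which in the XY KO at E11.5 is 14.2 CPM (6.14 to 28.0). In cells named Mesonephros it stood at 13.7, 15.3, 20.6 and 10.3 CPM. Il34, the other ligand, stood between 0.946 and 1.06 CPM in other cells. Cx3cl1, the ligand of CX3CR1, stood at 4.00, 2.36, 5.10 and 1.69 CPM in other cells in the same order of samples.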
